A study of Mus musculus with 6 samples.

Results

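Neurites are built on bundles of microtubules, and 10 genes whose proteins bind microtubules, bind tubulin or mark the growing tip of the neurite were followed here in N2a cells transfected with a control siRNA or with an siRNA against circRtn4. They were picked by gene symbol and comprise the microtubule-associated proteins (MAPs) Map1a, Map1b, Map2 and Mapt, the doublecortin gene Dcx, the stathmins Stmn1, Stmn2, Stmn3 and Stmn4, and Gap43. All 10 were found among the 54532 genes of the deposited table, each as a single entry. FPKM values count fragments relative to the length of the gene and the depth of the library. The test was limited to the 12749 genes whose mean FPKM was 1 or more, and 9 of the 10 genes were among them. Dcx was not.

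N2a (Neuro2A) is a mouse neuroblastoma line that can extend neurites. It was transfected with si-NC, a control siRNA (3 libraries), or with si-circRtn4, an siRNA against circRtn4, a circular RNA made from the Rtn4 gene (3 libraries). All 6 libraries are of the same line, whose strain the labels give as C57BL/6, and the labels name growth medium with serum. The study's general methods describe a change to retinoic acid medium after transfection of N2a cells, so the libraries may be of undifferentiated or differentiated cells. The labels do not say whether replicates were separate cultures, so p-values measure the spread between these libraries, which may be technical.

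Classical MAPs bind along the microtubule wall and stabilise it, with Map2 typical of dendrites, Mapt (tau) typical of axons, and Map1a and Map1b made as precursors that are cut into heavy and light chains. Doublecortin does the same in migrating young neurons. Stathmins work the other way, holding free tubulin dimers and favouring microtubule shrinkage, with Stmn1 in the cytosol and Stmn2 (SCG10), Stmn3 (SCLIP) and Stmn4 (RB3) attached to membranes. Gap43 is a membrane protein of the growth cone and a common marker of axon growth.

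The study examined circRtn4 as a binder of miR-24-3p, so the microRNA is shown first with its seed (bases 2 to 8, in capitals). The siRNA follows as the strand complementary to the one the study lists, read here as the guide, with the same bases in capitals. The remaining lines show the 3′ UTR sites of 7 bases that match the guide seed in Map1a and Map2, with the matching bases in capitals. These genes were picked for display because their groups did not overlap, with Map1a higher and Map2 lower after si-circRtn4. A role of the sites in these differences was not tested.
miR-24-3p: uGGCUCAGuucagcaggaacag
si-circRtn4 guide: aAAAGGGTctcatctgaag
Map1a first site: tggcttcaacACCCTTTtctggtccct
Map1a second site: ccatagtaaaACCCTTTgtagtcttag
Map2 site: tgtctcctgcACCCTTTggtgttgcaa

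The sites were searched for on the sense strand of the longest 3′ UTR annotated for each gene in GENCODE M21 (GRCm38). The first site of Map1a lies at bases 1802 to 1808 of a 3′ UTR of 2745 bases, on chromosome 2 from 121309889 to 121309895. The second lies at bases 2093 to 2099, from 121310180 to 121310186. The site of Map2 lies at bases 864 to 870 of a 3′ UTR of 3576 bases, on chromosome 1 from 66439871 to 66439877. Dcx held 3 guide sites in 7709 bases. The other 7 genes held none, so among the 9 tested genes 2 had a guide site, against 13.1% of the 10691 tested protein-coding genes with a 3′ UTR of at least 20 bases. The 3′ UTRs with a site were long, at 2745 to 7709 bases against a median of 1349, and those of Map1b (4360 bases) and Mapt (3903 bases) were as long without one. The 7-base site of miR-24-3p (CTGAGCC) was found in 0 of the 10 genes, against 21.6% of the same 10691 genes. The 3′ UTRs of Stmn1, Stmn3, Stmn4 and Gap43 are short, at 305 to 632 bases, which leaves less room for a site. That of Stmn2, at 1281 bases, was near the median of 1349. The 3′ UTRs of Map1a, Map1b, Map2, Mapt and Dcx, at 2745 to 7709 bases, held no miR-24-3p site either. The part of UTR length was not tested. A match is only a run of letters, and binding was not measured here.

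In the control libraries the stathmins Stmn1 and Stmn3 stood highest. On the FPKM scale, which is per length and so allows a comparison between genes, the si-NC means fell in the order Stmn1 (316), Stmn3 (233), Map1b (153), Gap43 (100.4), Mapt (54.1), Stmn2 (22.6), Stmn4 (19.5), Map1a (13.9), Map2 (4.73) and Dcx (0.137). Neighbours in this order did not overlap in the 3 si-NC libraries, except Stmn2 and Stmn4. In the si-circRtn4 libraries the ranges of Stmn3 and Map1b, of Stmn2 and Stmn4, and of Stmn4 and Map1a overlapped. The mean of Stmn1 was 66.8 times that of Map2. The authors' gene length equalled the union of all annotated exons for each of the 10 genes, which lowers the FPKM of a gene whose long exons are little used. Between 418 reads (Stmn4) and 44581 reads (Map1b) per library stood behind the values of the 9 tested genes.

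No member passed the threshold after correction over all genes in limma, but the structural MAPs leaned both ways. Map1a and Map1b had higher means in the si-circRtn4 libraries, at 136% and 116% of the si-NC means. Map2, Mapt and Gap43 had lower means, at 79.2%, 84.3% and 81.1%. The stathmins lay at 93.6% to 111%. In limma on log2(FPKM + 1) with Benjamini-Hochberg adjustment over 12749 genes, 0 of the 9 genes reached an adjusted p under 0.05, where 9.19% of all genes tested did (4.36% higher and 4.82% lower). At an unadjusted p under 0.05 the count was 2 of 9, Map1a and Map2, against 25.9% of all genes (13.1% higher and 12.8% lower). With limma-voom on reads recovered from the FPKM values, 1 of 9 was called (Map1a higher), against 12.8% of all genes (7.08% higher and 5.69% lower). As TPM, a rescaling of each library to one total, 1 of 9 was called (Map1a higher), against 10.7% (7.62% higher and 3.08% lower). With the replicate number as a block, 2 of 9 were called (Map1a higher and Gap43 lower), against 19.0% (9.29% higher and 9.75% lower). The labels do not give this pairing, which was chosen from these same values. In bulk RNA a lower value from fewer cells of one kind cannot be told apart from less RNA per cell.

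**Figure D1:**
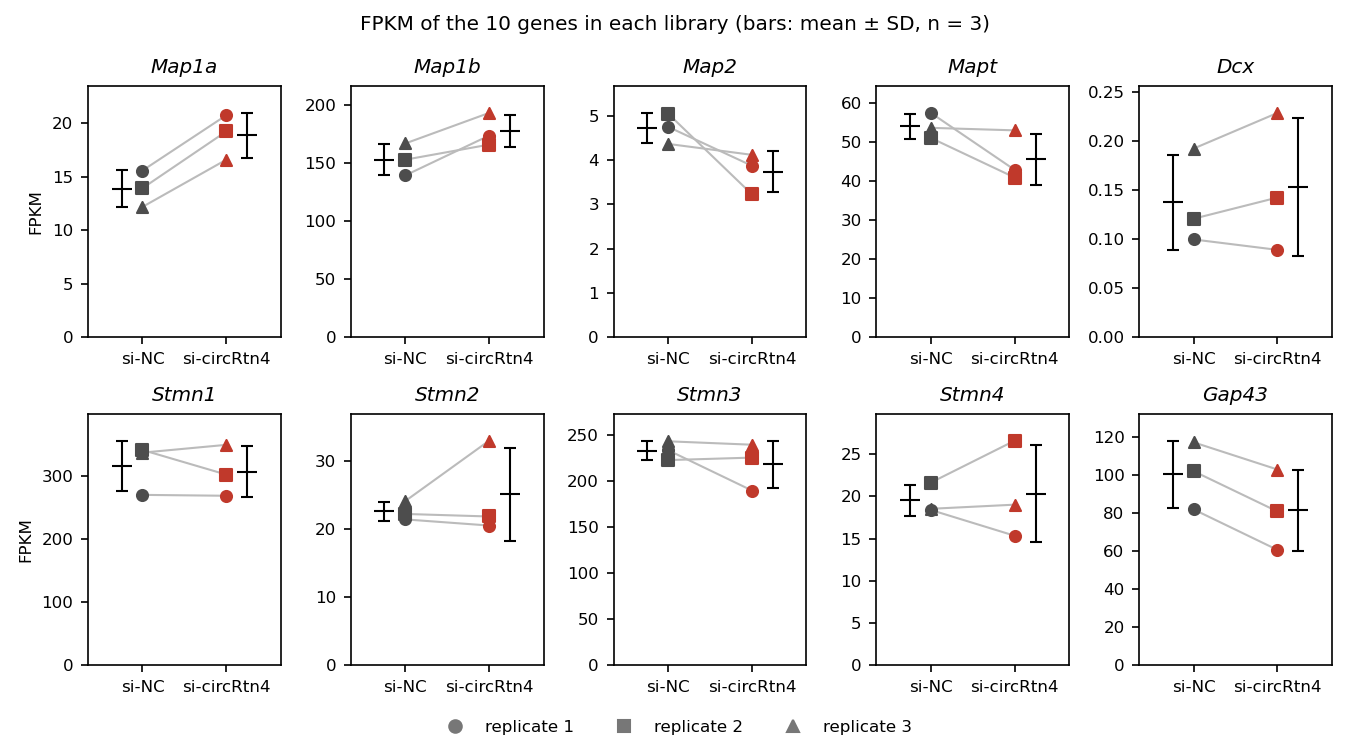
FPKM of each of the 10 genes (vertical axes from 0) in the si-NC libraries (grey) and the si-circRtn4 libraries (red), with marker shapes and grey lines for replicate numbers and black bars for mean ± SD (n = 3). The groups do not overlap for Map1a, which is higher after si-circRtn4, and for Map2, which is lower (31.7% of all genes tested do not overlap). Map1b is higher, and Mapt and Gap43 are lower, in each of the 3 pairs of equal number although their groups overlap. Of all genes tested, 56.7% kept one direction in all 3 pairs.

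Map1a (ENSMUSG00000027254, chromosome 2, 121289600 to 121310832, plus strand, GRCm38) had the largest difference among the 9 genes. Its levels, in the order of replicates 1 to 3, were 15.6, 13.9 and 12.2 FPKM with si-NC and 20.7, 19.2 and 16.6 FPKM with si-circRtn4. Each si-circRtn4 library lay above each si-NC library, and within each group the library numbered 1 was the highest and the one numbered 3 the lowest. The means were 13.9 ± 1.70 and 18.9 ± 2.10 FPKM (SD, n = 3 each). The log2 fold change was 0.42 (standard error 0.11, 95% interval 0.15 to 0.68), with an adjusted p of 0.0633 in limma. The exact permutation p (two-sided) was 0.1, the smallest value that 3 libraries against 3 allow. The difference was 0.39, 0.44 and 0.42 on the log2 scale in the pairs of replicates 1, 2 and 3, a narrower spread than that between the libraries of a group. With the replicate block the same change was past the threshold (95% interval 0.29 to 0.55, adjusted p = 0.00841 in limma). It was also past it in limma-voom (adjusted p = 0.0251) and after rescaling to TPM (adjusted p = 0.0367). As TPM without the very short and abundant Gm23935, Map1a was not called (log2 fold change 0.46, adjusted p = 0.0750 in limma). Over all 14 fits the adjusted p lay between 0.00841 and 0.164. Exons of Map1a overlap those of Ppip5k1 on the opposite strand by 272 bases. Ppip5k1 had 494 to 850 reads per library where Map1a had 2073 to 3642, and strand use in the counting is not given in the sources used here, so shared reads cannot be told apart.

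Map1b (ENSMUSG00000052727, chromosome 13, 99421446 to 99516540, minus strand), the relative of Map1a that is typical of young growing axons, was the most abundant of the MAPs. Its levels were 139.6, 153 and 167 FPKM with si-NC and 174, 166 and 194 FPKM with si-circRtn4. The groups overlapped narrowly, since si-circRtn4 replicate 2 lay just under si-NC replicate 3. The means were 153 ± 13.8 and 178 ± 14.1 FPKM (SD, n = 3 each), with a log2 difference of 0.21 (95% interval -0.01 to 0.44, adjusted p = 0.214 in limma). Its value was higher in all 3 pairs, by 0.32, 0.12 and 0.21 on the log2 scale. With the replicate block the adjusted p was 0.0706 in limma.

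Map2 (ENSMUSG00000015222, chromosome 1, 66175273 to 66442583, plus strand) was the lowest of the tested genes. Its levels were 4.76, 5.06 and 4.37 FPKM with si-NC and 3.88, 3.23 and 4.12 FPKM with si-circRtn4. Each si-circRtn4 library lay below each si-NC library. The means were 4.73 ± 0.344 and 3.74 ± 0.461 FPKM (SD, n = 3 each). The log2 difference was -0.28 (95% interval -0.51 to -0.04), with an adjusted p of 0.142 in limma and p = 0.1 in the two-sided exact permutation test. Pairing did not narrow this difference, as the pairs gave -0.24, -0.52 and -0.07 (adjusted p = 0.124 in limma with the replicate block).

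Mapt (ENSMUSG00000018411, chromosome 11, 104231390 to 104332090, plus strand) had levels of 57.5, 51.1 and 53.7 FPKM with si-NC and 42.9, 40.9 and 53.0 FPKM with si-circRtn4. Replicates 1 and 2 of si-circRtn4 lay below all controls, whereas replicate 3 lay within the control range. The means were 54.1 ± 3.23 and 45.6 ± 6.49 FPKM (SD, n = 3 each), with a log2 difference of -0.25 (95% interval -0.50 to 0.00, adjusted p = 0.201 in limma). The pairs gave -0.41, -0.31 and -0.02. Without si-circRtn4 replicate 3 the log2 difference was -0.36 (adjusted p = 0.0685 in limma).

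In all, 2 of the 9 tested genes had groups that did not overlap, Map1a higher and Map2 lower, where 31.7% of all genes tested had such groups (16.2% higher and 15.5% lower). Of the 9 genes, 5 kept one direction in all 3 pairs, Map1a and Map1b higher and Map2, Mapt and Gap43 lower, against 56.7% of all genes tested (28.4% higher and 28.3% lower). The median absolute log2 fold change of the 9 genes was 0.21, and that of all genes tested was 0.14.

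Doublecortin was close to the limit of what these libraries could show. Dcx (ENSMUSG00000031285, chromosome X, 143855842 to 143933311, minus strand) had levels of 0.0995, 0.121 and 0.192 FPKM with si-NC and 0.0889, 0.142 and 0.228 FPKM with si-circRtn4, from 16 to 42 reads per library. In both groups the library numbered 3 was the highest and the one numbered 1 the lowest. In the fit over all detected genes its log2 difference was 0.02 (adjusted p = 0.901 in limma).

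The stathmins include the 2 most abundant genes of the set. Of the 4, 0 passed the test in limma (9.19% of all genes tested did) and 0 had an unadjusted p under 0.05 (25.9%). In limma-voom 0 were called (12.8%), and with the replicate block 0 (19.0%). With only 4 genes, counts of 0 do not set the stathmins apart from these shares. Stmn1 (ENSMUSG00000028832, chromosome 4, 134468320 to 134473843) had levels of 269.5, 341 and 336 FPKM with si-NC and 268, 302 and 349 FPKM with si-circRtn4. Replicate 1 was the lowest library of both groups, and the groups overlapped almost fully. The log2 difference was -0.04 (95% interval -0.35 to 0.26, adjusted p = 0.876 in limma). Stmn3 (ENSMUSG00000027581, chromosome 2, 181306459 to 181314500) measured 234, 223 and 243 FPKM and 189.9, 226 and 239.8 FPKM in the same order. Only si-circRtn4 replicate 1 lay below the controls. The log2 difference was -0.10 (95% interval -0.34 to 0.14, adjusted p = 0.589 in limma).

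The 2 less abundant stathmins each had 1 si-circRtn4 library that stood above the rest. Stmn2 (ENSMUSG00000027500, chromosome 3, 8509360 to 8561606), whose protein is carried to growth cones, had levels of 21.4, 22.2 and 24.1 FPKM with si-NC and 20.5, 21.9 and 33.0 FPKM with si-circRtn4. The third si-circRtn4 library was above all others, while replicate 1 lay just under the control range and replicate 2 within it. The log2 difference of 0.12 (95% interval -0.27 to 0.51, adjusted p = 0.714 in limma) became -0.09 without si-circRtn4 replicate 3. Stmn4 (ENSMUSG00000022044, chromosome 14, 66344296 to 66361680) measured 18.4, 21.6 and 18.5 FPKM and 15.3, 26.6 and 19.0 FPKM in the same order. Here si-circRtn4 replicate 2 was the highest library and replicate 1 the lowest. The log2 difference of 0.02 (95% interval -0.39 to 0.44, adjusted p = 0.952 in limma) became -0.18 without si-circRtn4 replicate 2.

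Gap43 (ENSMUSG00000047261, chromosome 16, 42248442 to 42340651, minus strand) had levels of 81.9, 102 and 117 FPKM with si-NC and 60.6, 80.8 and 103 FPKM with si-circRtn4. The groups overlapped, and in both of them replicate 1 was the lowest and replicate 3 the highest. The means were 100.4 ± 17.7 and 81.4 ± 21.2 FPKM (SD, n = 3 each). The log2 difference was -0.32 (standard error 0.20, 95% interval -0.79 to 0.15), with an adjusted p of 0.378 in limma and p = 0.3 in the two-sided exact permutation test. The value was lower in all 3 pairs, by -0.43, -0.33 and -0.19 on the log2 scale. Leaving out replicate 1 or 3 of si-circRtn4 moved the log2 difference to -0.12 or -0.50, respectively. With the replicate block the standard error was 0.066 and Gap43 passed the threshold (95% interval -0.48 to -0.15, adjusted p = 0.0291 in limma). No other of the 14 fits called it, and its adjusted p lay between 0.0291 and 0.727.

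**Figure D2:**
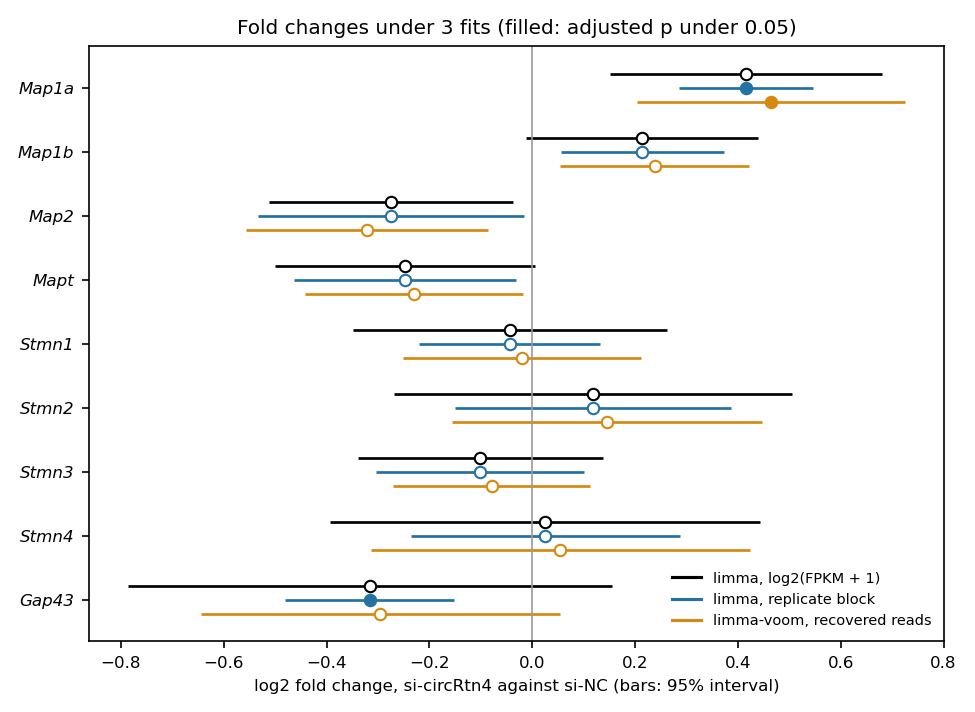
Log2 fold change (horizontal axis, si-circRtn4 against si-NC) of the 9 tested genes with its 95% interval in limma on log2(FPKM + 1), in limma with replicate number as a block and in limma-voom on recovered reads. Filled points have an adjusted p under 0.05: Map1a in the blocked fit and in limma-voom, and Gap43 in the blocked fit.

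A share within a family does not depend on how a library is scaled. Among the structural MAPs and doublecortin, Map1b made up 64.2%, 68.6% and 70.4% of the summed FPKM in the si-NC libraries and 72.0%, 72.3% and 72.3% in the si-circRtn4 libraries. Mapt made up 26.4%, 22.9% and 22.6% and then 17.8%, 17.8% and 19.8%. Map2 made up 2.19%, 2.26% and 1.84% and then 1.60%, 1.41% and 1.54%. For these 3 of the 9 shares every si-circRtn4 library lay on one side of every si-NC library. In FPKM, a different measure, 31.7% of all genes tested had groups that did not overlap, so 3 of 9 does not stand out from it. The mean shares of Map1b, Mapt and Map2 differed by 4.53, -5.50 and -0.58 percentage points. Each gave p = 0.1 in a two-sided exact permutation test, the smallest value possible here, and 0.3 after Benjamini-Hochberg adjustment over 9 shares. The shares of a family add up to its whole, so a higher share of Map1b lowers the sum of the others, though not each of them. These 3 differences therefore depend on each other. In FPKM the groups of Map1b and of Mapt overlapped. The share of Map1a overlapped between the groups (6.17% ± 1.02 against 7.72% ± 1.32, SD, n = 3 each, exact permutation p = 0.3), although it was higher in each of the 3 pairs of equal number, at 7.16% and 8.59%, 6.23% and 8.37%, and 5.13% and 6.20%. The difference of Map1b was 2.77 points without si-NC replicate 1.

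Within the stathmins, Stmn1 and Stmn3 together took most of the summed FPKM in each library. Stmn1 made up 53.2% ± 3.30 in si-NC and 53.7% ± 1.15 in si-circRtn4 libraries, and Stmn3 made up 39.6% ± 3.20 and 38.4% ± 0.890 (SD, n = 3 each). Stmn2 made up 3.83% ± 0.149 and 4.37% ± 0.704, and Stmn4 made up 3.31% ± 0.301 and 3.57% ± 0.918 (SD, n = 3 each). All 4 shares overlapped between the groups, with p = 0.3 for Stmn2 and 0.8 to 0.9 for the others in two-sided exact permutation tests. The share of Stmn2 was higher in each of the 3 pairs, and its mean difference of 0.54 percentage points was 0.15 without si-circRtn4 replicate 3.

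**Figure D3:**
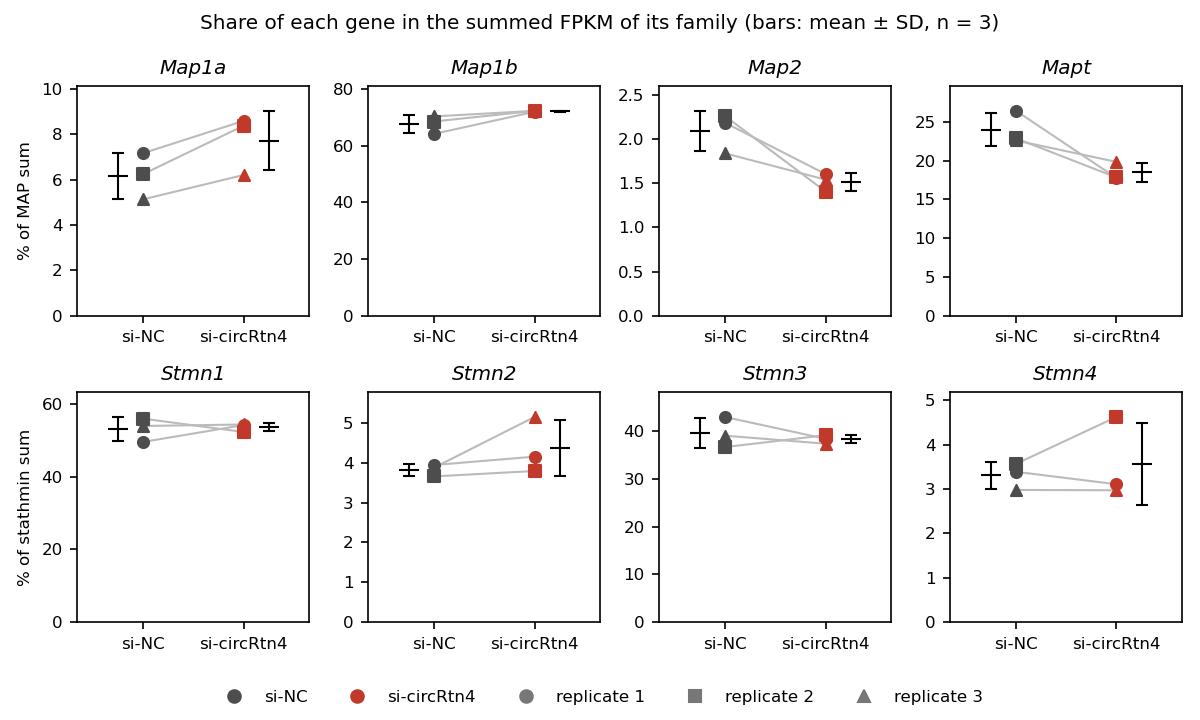
Share of each gene in the summed FPKM of its family (percent, vertical axes from 0), with the MAP family in the upper row and the stathmins in the lower row, si-NC in grey and si-circRtn4 in red, and black bars for mean ± SD (n = 3). The shares of Map1b, Map2 and Mapt do not overlap between the groups, and those of the 4 stathmins and of Map1a do. In FPKM, 31.7% of all genes tested had groups that did not overlap. Dcx, which made up under 0.1% of its family in each library, is not drawn.

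Other genes of microtubule and growth-cone biology were read from 6 lists written by hand, with 76 genes of which 68 were tested. Among them 3 rose and 3 fell at an adjusted p under 0.05 in limma, which is 8.82% against 9.19% of all genes tested. Of 13 other tubulin-binding proteins tested, 0 rose and 2 fell, where 4.36% of all genes rose and 4.82% fell. The list median was -0.18 on the log2 scale against 0.00 for all genes. With 1 library left out that median lay between -0.30 (without si-circRtn4 replicate 3) and -0.064 (without si-circRtn4 replicate 1), and was -0.073 without si-NC replicate 3. It was -0.044 with all detected genes. In this list 6 genes had an unadjusted p under 0.05 in limma (25.9% of all genes did). In limma-voom 1 was called higher and 2 lower (12.8% of all genes were called), and with the replicate block 1 higher and 4 lower (19.0%). Of 13 tubulin-modifying enzymes, 2 rose and 0 fell (median -0.06), with 5 at an unadjusted p under 0.05, 2 called in limma-voom and 3 with the replicate block. Of 8 growth-cone membrane and collapsin response mediator proteins, 1 rose and 0 fell (median 0.08). Here 2 had an unadjusted p under 0.05 in limma, and 2 were called in limma-voom and 2 with the replicate block. Of 11 kinases that act on MAPs or stathmins and their activators, 0 rose and 1 fell (median -0.07). Among these 3 had an unadjusted p under 0.05 in limma, 3 were called in limma-voom and 2 with the replicate block. Of 14 end-binding and assembly proteins (median 0.00), 0 passed this test in limma, 3 had an unadjusted p under 0.05 (25.9% of all genes did), 0 were called in limma-voom (12.8%) and 1 with the replicate block (19.0%). Of 9 severing proteins (median 0.12), 0 passed in limma, 1 had an unadjusted p under 0.05, and 0 were called in limma-voom or with the replicate block.

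Map6 (STOP), a protein that protects microtubules from cold, fell from 24.0, 19.9 and 19.5 FPKM with si-NC to 13.0, 11.3 and 12.7 FPKM with si-circRtn4. The groups lay far apart, and the log2 fold change was -0.73 (SE 0.10, adjusted p = 0.00727 in limma), and the call held in all 14 fits. Tppp3, a tubulin polymerisation promoting protein, fell from 154.8, 121 and 115 FPKM to 82.0, 76.1 and 90.8 FPKM. Its groups did not overlap either (log2 fold change -0.63, SE 0.13, adjusted p = 0.0241 in limma). The call of Tppp3 was lost when the second si-NC library or either of the first 2 si-circRtn4 libraries was left out (adjusted p = 0.0629, 0.0726 and 0.0861 in limma). It was also lost with all detected genes in the fit (adjusted p = 0.0879), as were those of Mapk10 (0.151) and Sirt2 (0.103). Mapk10 (JNK3), a neuronal kinase, fell from 3.07, 2.96 and 2.23 FPKM to 1.62, 1.77 and 1.40 FPKM (log2 fold change -0.53, adjusted p = 0.0465 in limma). Mapk10 kept its call in only 6 of the 14 fits, and lost it when any library other than si-NC replicate 3 was left out (adjusted p of 0.0945 to 0.155).

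Basp1, a growth-cone membrane protein related in function to Gap43, rose where the mean of Gap43 was lower. It went from 151.5, 157 and 159.6 FPKM with si-NC to 206, 202 and 222 FPKM with si-circRtn4. The groups were well separated, and the log2 fold change was 0.43 (SE 0.074, adjusted p = 0.0150 in limma). The call was lost without si-NC replicate 2 (adjusted p = 0.0661 in limma). Vash2, which removes the terminal tyrosine from tubulin, rose from 17.8, 16.8 and 16.3 FPKM to 21.1, 22.0 and 22.2 FPKM (log2 fold change 0.35, adjusted p = 0.0237 in limma). Sirt2, a tubulin deacetylase, rose from 8.78, 7.80 and 7.71 FPKM to 11.8, 12.1 and 9.82 FPKM (log2 fold change 0.43, adjusted p = 0.0370 in limma). Leaving out replicate 2 or 3 of si-NC, or replicate 1 or 2 of si-circRtn4, ended the calls of both genes (adjusted p of 0.0555 to 0.124), as did leaving out si-circRtn4 replicate 3 for Vash2 (adjusted p = 0.0721).

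**Figure D4:**
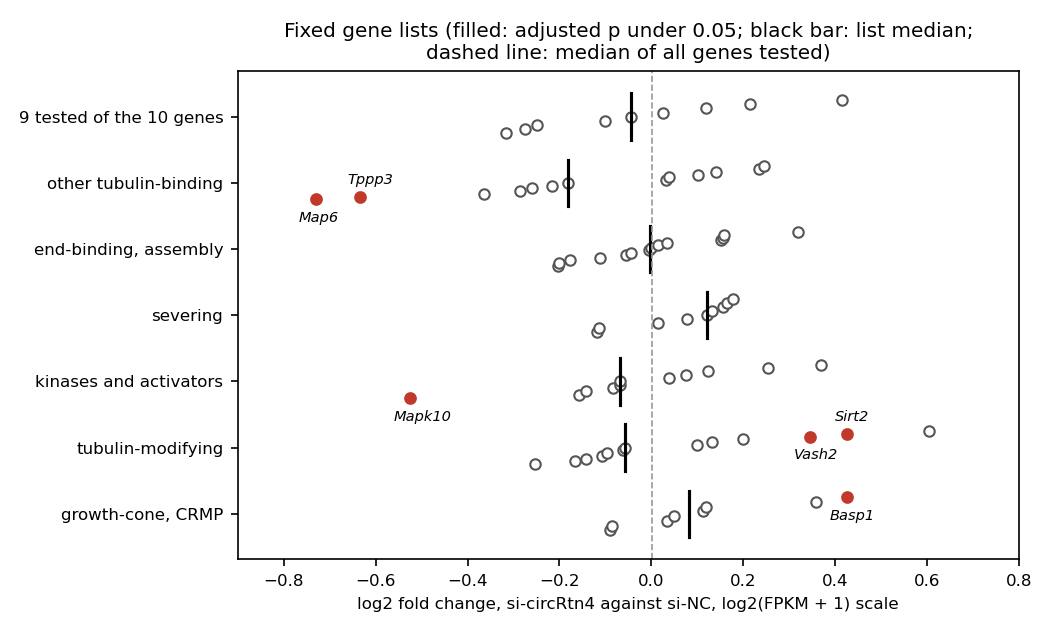
Log2 fold change on the log2(FPKM + 1) scale (horizontal axis) of each tested gene of the 9 and of the 6 lists, 1 point per gene, with the list median as a black bar and the median of all genes tested as a dashed line. Filled points have an adjusted p under 0.05 and are named: Map6, Tppp3 and Mapk10 lie on the lower side, and Vash2, Sirt2 and Basp1 on the higher side.

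The cell label was checked against 7 markers of neuroblastoma and sympathetic neurons, and all 7 had a mean of at least 1 FPKM. Their summed level was 971 to 1087 FPKM in the si-NC libraries and 704 to 980 FPKM in the si-circRtn4 libraries, so the ranges overlapped, with Phox2a lower (log2 fold change -0.53, adjusted p = 0.0210 in limma) and Elavl4 higher (0.80, adjusted p = 0.0252 in limma). The call of Phox2a was lost without any one si-NC library or without si-circRtn4 replicate 2 (adjusted p of 0.0558 to 0.0762 in limma), and that of Elavl4 without si-NC replicate 2 or any one si-circRtn4 library (0.0514 to 0.0721). With all detected genes in the fit both were lost (adjusted p = 0.0769 and 0.0956). The part of these markers in the differences above was not tested. Of 16 markers of glia, fibroblasts and blood cells, Mbp alone exceeded a mean of 1 FPKM, at 2.88 to 4.60, and Aqp4 and Hbb-bs were at 0 in every library. In the si-NC and si-circRtn4 libraries the summed levels were 4.95 to 5.77 and 3.67 to 5.45 FPKM for 6 glial markers, 0.301 to 0.503 and 0.509 to 0.786 FPKM for 6 fibroblast markers, and 0.437 to 1.32 and 0.682 to 1.24 FPKM for 4 blood markers. Recovered reads numbered 13541198 to 15122063 per library. Reads of linear and circular RNA of Rtn4 fall on the same gene, which was at 50.1 to 69.8 FPKM over the 6 libraries with overlapping groups, so the knockdown of circRtn4 cannot be read from these values.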

How the data were processed

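RNA of 6 N2a libraries was sequenced, and the groups and replicate numbers were taken from the sample titles. The authors deposited 1 table of FPKM values per gene and library, with the length of each gene. Per the submitters' processing notes, Bowtie 0.12.2 and the builds mm8 and mm9 were named, whereas 98.3% of the listed genes have the coordinates of GENCODE M21 (GRCm38). The counting tool and its strand setting are not given in the sources used here. Another 6 columns, which match none of the labelled samples, were left aside.

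The genes and lists were chosen with earlier results of these data known. The values plus a pseudocount of 1 were log2 transformed and tested in R 4.3.3 by limma 3.58.1 (trend, two-sided, unpaired) over the 12749 genes averaging 1 FPKM or more, with Benjamini-Hochberg adjustment and a threshold of 0.05. Fold changes are on this scale, which understates the change of low genes. Multiplied by gene length, FPKM gave whole reads within 0.01 read for 100% of values in each library, and these reads were used in limma-voom. One listed marker of the cell type is not reported here. All 10 genes are named. In each list, up to 3 called genes with the largest change were named, and genes named in the closing section were chosen after their values were seen. The rule for naming genes most like a called member named none, since none was called. Libraries of equal replicate number deviated together from their group means (correlations of 0.331, 0.190 and 0.226, against at most 0.0091 between others), so the numbers were treated as pairs in the blocked fit. Deviations from a group's own mean cancel out over its libraries, so positive correlations at equal numbers push the others down. The pairing was chosen from the same values that the blocked fit tests. The labels do not say what a number shares. The fits were tested on simulated data. Python 3.11.15, numpy 2.4.6, pandas 2.3.3, scipy 1.17.1 and matplotlib 3.10.9 were used for other steps.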

Additional observations from a re-analysis of the deposited data

How the results depend on the processing

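Log2 fold changes and counts of called genes were recomputed with a pseudocount of 0.1, with all detected genes, as TPM, as TPM without the very short and abundant Gm23935, after quantile normalization, with limma-voom, with the replicate block and without each library in turn, and family shares with recovered reads and without each library. The directions of Map1a, Map1b, Map2, Mapt, Stmn3 and Gap43 held in all 13 alternatives. Map1a became past the threshold as TPM (0.52), in limma-voom (0.46) and with the replicate block (0.42), and Gap43 with the replicate block (-0.32). Thus 1 gene of the set was called higher in each of these 3 fits and 1 was called lower with the replicate block. Libraries were left out only in the unpaired fit on log2(FPKM + 1), which called 0 of the 9 tested genes with all libraries. It also called 0 of them without any one library, where 163 to 407 of all 12749 genes were called higher and 217 to 419 lower. The fits as TPM, in limma-voom and with the replicate block were not repeated without a library. The TPM call of Map1a was lost without Gm23935 (0.46, adjusted p = 0.0750 in limma). The direction of Stmn1 turned as TPM (0.049). Leaving out 1 library gave -0.50 to -0.12 for Gap43, -0.17 to -0.0040 for Stmn3 (the latter without si-circRtn4 replicate 1), -0.15 to 0.048 for Stmn1, -0.088 to 0.24 for Stmn2 and -0.18 to 0.20 for Stmn4.

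The genes called higher and lower over the whole table numbered 556 and 615 in the unpaired fit, 210 and 261 with all detected genes, 972 and 393 as TPM, 902 and 725 in limma-voom and 1185 and 1243 with the replicate block. Rescaling to TPM raised the median of all genes by 0.09. Leaving out 1 library gave 163 to 407 higher and 217 to 419 lower genes. In the 6 lists the called genes numbered 7 higher as TPM and in limma-voom, 8 higher and 5 lower with the replicate block and 1 lower with all detected genes. Without 1 library they numbered 0 to 3 higher and 1 to 3 lower, the lowest of both without si-NC replicate 2. The replicate block ended none of the 6 list calls named in the report and added 7. Medians of the kinase and tubulin-modifying lists turned above 0 as TPM (0.021 and 0.017), that of the end-binding list was 0.085, and that of the severing list (0.12) was 0.024 without si-NC replicate 1.

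For family shares, counting reads in place of FPKM turned the difference of Stmn1 to -0.46 percentage points and that of Dcx to -0.00036. Leaving out 1 library gave -1.35 to 1.88 for Stmn1, -2.72 to 0.45 for Stmn3, -0.27 to 0.56 for Stmn4 and -0.011 to 0.013 for Dcx, whereas Map1a, Map1b, Map2, Mapt and Stmn2 kept their directions. In recovered reads the difference was 2.92 for Map1b, -3.34 for Mapt and 1.47 for Stmn2. Map1a gave 1.02 without si-NC replicate 3. The causes of these moves were not tested. Counting error at 16 to 42 reads per library limits what can be said of Dcx.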

Other observations

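The paired fit called 13 of the 68 list genes tested (19.1%, against 19.0% of all genes), 8 higher and 5 lower, and the 7 of them that the unpaired fit did not call are given here after their values were seen. Svbp, the binding partner of the vasohibins, measured 4.91, 6.19 and 4.09 FPKM with si-NC and 7.92, 9.95 and 6.78 FPKM with si-circRtn4. Its groups did not overlap, and within both groups replicate 2 was the highest and replicate 3 the lowest. The log2 fold change of Svbp was 0.60, with an adjusted p of 0.00502 in limma with the replicate block and 0.0596 without it.

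With the replicate block, the doublecortin relative Dclk2 was higher at 120% of the si-NC mean (adjusted p = 0.0364 in limma), the plus-end protein Clip2 at 126% (adjusted p = 0.0230), the kinase Mark4, which phosphorylates MAPs, at 140.0% (adjusted p = 0.0293) and Dpysl5, a collapsin response mediator protein, at 138% (adjusted p = 0.0395). Map1lc3b, whose protein is better known for its role in autophagosomes, was lower at 81.2% (adjusted p = 0.0257), and Map9 was lower at 81.9% (adjusted p = 0.0339). Without the block, these 6 genes had adjusted p-values from 0.0553 to 0.112 in limma.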
